A study of Mus musculus with 8 samples.

Results

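The Cyp4a genes of mouse chromosome 4 encode cytochrome P450 enzymes that hydroxylate the terminal (omega) carbon of fatty acids and of arachidonic acid. The 6 genes described here, *Cyp4a10*, *Cyp4a12a*, *Cyp4a12b*, *Cyp4a14*, *Cyp4a31* and *Cyp4a32*, were found by matching the Ensembl identifiers of the count table to these symbols in the GRCm38 annotation, and they are 6 of the 18095 genes in the table. The genes were chosen from the levels measured in this same comparison of genotypes, so their differences between genotypes are given below as a description. They are not read as a test, although the genes were part of the fit across all genes. Liver RNA was sequenced from 8 mice at 12 weeks of age. The study's text states that all were males on a high-fat diet (HFD). 4 were wild type (WT) and 4 were labelled *Inpp4b*-/-, that is, lacking in the whole body the phosphatase INPP4B, which removes a phosphate from membrane phosphoinositides. The labels give a C57BL/6 background and the study's methods an FVB background, for both genotypes alike. Each library came from a mouse with its own number in the labels.

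Omega-hydroxylation opens a side route of fatty acid breakdown: the hydroxylated chain is oxidised to a dicarboxylic acid, which is then shortened in peroxisomes. Omega-hydroxylation of arachidonic acid gives 20-HETE, a regulator of vessel tone. *Cyp4a10* and *Cyp4a14* are standard target genes of the lipid-sensing nuclear receptor PPARA in rodent liver, while *Cyp4a12a* is a male-biased gene of liver and kidney that depends on androgen and growth hormone.

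Library totals ran from 25893430 to 31427831 counts in the HFD WT group and from 32738435 to 36662531 in the libraries labelled *Inpp4b*-/-. *Inpp4b* itself was near the limit of detection, at 0.465 ± 0.305 CPM (counts scaled to a library of 1000000 counts) in the libraries labelled *Inpp4b*-/- and 0.332 ± 0.207 in HFD WT (SD, n = 4 each), so its counts did not check the labels, and every direction below rests on the labels. The 9 hepatocyte markers in the table summed to 86500 to 105000 CPM in the libraries labelled *Inpp4b*-/- and 84600 to 92800 CPM in HFD WT. Most of each sum was *Alb*, at 56220 to 70750 against 52520 to 55900 CPM without overlap. Of the 9 markers, 7 were lower in the libraries labelled *Inpp4b*-/-, with a median log2 fold change of -0.15. The summed markers of macrophages and leukocytes (127 to 227 against 69.2 to 207 CPM), stellate cells (226 to 301 against 217 to 299), endothelium (105 to 157 against 117 to 151) and bile duct (29.7 to 40.6 against 23.7 to 31.6) also overlapped. By single gene, 10 of 13 markers of macrophages and leukocytes were higher (median log2 fold change 0.34) and 4 of 5 of bile duct (0.49). It was 5 of 10 for stellate cells (0.11) and 3 of 7 for endothelium (-0.016). No marker of these 5 lists was called between genotypes by edgeR. At an unadjusted p under 0.05 there were 3 of 9 for hepatocytes, 1 of 13 for macrophages and leukocytes, 3 of 10 for stellate cells, 0 of 7 for endothelium and 2 of 5 for bile duct, and DESeq2 called 1 each for hepatocytes, stellate cells and bile duct. The share of all tested genes at that unadjusted level is not given here, so these counts and the later ones are not read against it. None of 8 kidney markers was among the genes in the table. All 18095 genes of the table had at least 1 count in every library of 1 genotype or of both. A gene absent from it can thus still have had reads. HFD WT replicate 2 stood apart from its group in several genes, and the lists and genes that moved most without it are also given without it. In bulk liver, fewer cells of a type and less RNA per cell cannot be told apart.

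The 6 genes lie within 322.6 kb of one another. In GRCm38 they run from *Cyp4a12a* (ENSMUSG00000066071, chr4:115299046-115332815, + strand) through *Cyp4a12b* (ENSMUSG00000078597, chr4:115411624-115439034, +), *Cyp4a14* (ENSMUSG00000028715, chr4:115486200-115496142, −), *Cyp4a10* (ENSMUSG00000066072, chr4:115518264-115533649, +) and *Cyp4a31* (ENSMUSG00000028712, chr4:115563649-115579015, +) to *Cyp4a32* (ENSMUSG00000063929, chr4:115600969-115621602, +). Each has 12 exons in its annotated transcript except *Cyp4a10*, which has 13. All encode proteins of 507 to 509 residues. By coding sequence they fall into a pair, a trio and a single gene. *Cyp4a12a* and *Cyp4a12b* were 98.49% identical, differing at 23 of 1527 bases. *Cyp4a10* was 97.19% identical to *Cyp4a32* (43 differences over 1530 bases) and 96.6% identical to *Cyp4a31* (52 differences), and *Cyp4a31* and *Cyp4a32* were 96.01% identical (61 differences). Every other pairing, *Cyp4a14* with any gene included, was between 76.08% and 80.59% identical.

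The stretches below show bases by which copies within a set can be told apart. Each is 90 bases of one coding exon, written on the + strand of GRCm38, with capitals at the positions that differ within the set. The pair differs at 7 positions in exon 6 (coding bases 661 to 750, chr4:115326659-115326748 and chr4:115432912-115433001).
Cyp4a12a: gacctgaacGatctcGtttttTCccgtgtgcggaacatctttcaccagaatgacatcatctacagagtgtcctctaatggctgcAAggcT
Cyp4a12b: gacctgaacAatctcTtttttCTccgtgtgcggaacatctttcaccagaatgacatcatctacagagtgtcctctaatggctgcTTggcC
The trio differs at 13 positions in exon 2 (coding bases 190 to 279, chr4:115519630-115519719, chr4:115565010-115565099 and chr4:115602260-115602349).
Cyp4a10: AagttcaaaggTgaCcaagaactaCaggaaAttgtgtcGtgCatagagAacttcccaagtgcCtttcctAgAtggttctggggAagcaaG
Cyp4a31: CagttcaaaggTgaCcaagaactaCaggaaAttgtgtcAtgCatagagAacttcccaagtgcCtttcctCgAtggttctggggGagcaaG
Cyp4a32: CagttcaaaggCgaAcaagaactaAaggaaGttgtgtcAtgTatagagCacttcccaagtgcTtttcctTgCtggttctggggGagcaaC

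These stretches are richer in differences than most of the coding sequence, and elsewhere the copies can be identical over a read. Of all 150-base windows in the aligned coding sequences, 32.1% were identical between *Cyp4a12a* and *Cyp4a12b*, against 3.48% between *Cyp4a10* and *Cyp4a32*, 2.68% between *Cyp4a10* and *Cyp4a31* and 4.49% between *Cyp4a31* and *Cyp4a32*. Over whole annotated transcripts, 74.4% of 150-base windows of *Cyp4a12a* and 74.1% of those of *Cyp4a12b* occurred in no other Cyp4a transcript. The share was 95.7% for *Cyp4a10*, 95.8% for *Cyp4a31*, 92% for *Cyp4a32* and 100% for *Cyp4a14*. Counts of the pair are therefore the most exposed to how reads that fit both copies were treated, and levels of single copies are uncertain to that extent. The annotated *Cyp4a32* transcript consists of 1530 coding bases with no untranslated region, whereas the other transcripts carry 579 to 979 untranslated bases.

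**Figure D1:**
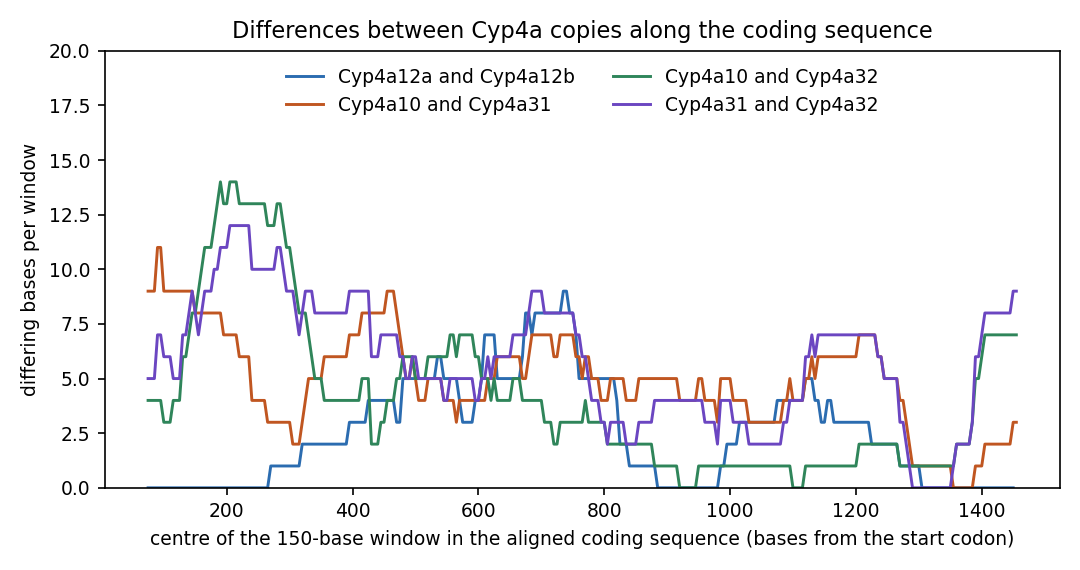
Differing bases in each 150-base window (y axis) against the centre of the window in the aligned coding sequence, in bases from the start codon (x axis), for the 4 closest pairs of Cyp4a copies. The Cyp4a12a and Cyp4a12b line lies at 0 over both ends of the coding sequence and reaches 9 at its highest, and Cyp4a10 and Cyp4a32 reach 14 near the 5′ end.

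*Cyp4a12b* was the gene with the lowest ratio between genotypes. Its level was 41.1, 20.8, 26.9 and 62.4 CPM in HFD WT replicates 1 to 4 and 3.69, 3.84, 5.82 and 5.9 CPM in the libraries labelled *Inpp4b*-/-. Every WT library lay above every library of the other group. The means were 37.8 ± 18.5 and 4.81 ± 1.21 CPM (SD, n = 4 each), a 7.86-fold lower level in the libraries labelled *Inpp4b*-/- (log2 fold change -2.97, SE 0.34). The raw counts behind these levels were 660 to 1626 in WT and 133 to 210 in the other group.

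Its partner *Cyp4a12a*, the main hepatic omega-hydroxylase of arachidonic acid in male mice, was close in both groups. It stood at 583, 453, 473 and 538 CPM in HFD WT and at 382, 471, 446 and 460 CPM in the libraries labelled *Inpp4b*-/-. The groups overlapped, with a log2 fold change of -0.22 (SE 0.11) and means of 511.6 ± 59.8 and 439.7 ± 40.1 CPM. As a share of the counts of the pair, *Cyp4a12b* made up 6.59%, 4.39%, 5.38% and 10.4% in WT and 0.958%, 0.808%, 1.29% and 1.27% in the other group. The smallest share, 0.808%, had an exact binomial (Clopper-Pearson) 95% interval of 0.682 to 0.949%, which covers counting error only. Because *Cyp4a12a* supplied nearly all of the pair's counts, the pair summed to 549.4 ± 73.9 CPM in WT and 444.5 ± 40.6 CPM in the libraries labelled *Inpp4b*-/-, a log2 ratio of -0.31, and the sums overlapped.

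*Cyp4a31*, a copy of *Cyp4a10* with the lowest level of the 6 genes, showed the next lowest ratio. It was measured at 10.4, 18.3, 11.6 and 22.7 CPM in HFD WT and at 2.25, 2.63, 3.93 and 2.05 CPM in the libraries labelled *Inpp4b*-/-. The groups were apart without overlap. The means of 15.7 ± 5.78 and 2.71 ± 0.843 CPM gave a 5.79-fold lower level (log2 fold change -2.54, SE 0.30), from raw counts of 282 to 590 and 73 to 122.

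*Cyp4a32*, the copy next to *Cyp4a31* on the chromosome, went the other way. Its level was 73.6, 43.1, 51.7 and 21.1 CPM in HFD WT against 107.8, 108, 145.8 and 149.4 CPM in the libraries labelled *Inpp4b*-/-. No WT library reached the lowest value of the other group. The mean was 2.69-fold higher in the libraries labelled *Inpp4b*-/- (127.7 ± 23 against 47.4 ± 21.7 CPM, log2 fold change 1.43, SE 0.31). Among the fits that left out 1 library this gene kept its direction, from 1.19 to 1.72, but met the call rule given below only without HFD WT replicate 1 or without HFD WT replicate 4.

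*Cyp4a10*, the PPARA-inducible copy of the trio, did not separate the groups. It was measured at 183, 253, 241 and 310 CPM in HFD WT and at 269, 313, 266 and 162 CPM in the libraries labelled *Inpp4b*-/-. Both ranges covered nearly the same span, with means of 246.9 ± 52.3 and 252.6 ± 64.2 CPM (log2 fold change 0.03, SE 0.21). The sign of that small difference turned to -0.09 without *Inpp4b*-/- replicate 2 and, equally, without HFD WT replicate 1.

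Within the trio the makeup of the counts differed more than their sum. *Cyp4a31* supplied 3.9%, 5.81%, 3.79% and 6.4% of the trio's counts in WT and 0.592%, 0.62%, 0.944% and 0.654% in the libraries labelled *Inpp4b*-/-, with no overlap. The share of *Cyp4a32* was 27.6%, 13.7%, 17% and 5.96% in WT and 28.4%, 25.5%, 35.1% and 47.7% in the other group. Here HFD WT replicate 1 lay above *Inpp4b*-/- replicate 2, so the shares of *Cyp4a32* overlapped although its CPM values did not. The trio summed to 310 ± 35.9 CPM in WT and 383 ± 50.3 CPM in the libraries labelled *Inpp4b*-/-, a log2 ratio of 0.31 with overlapping values.

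**Figure D2:**
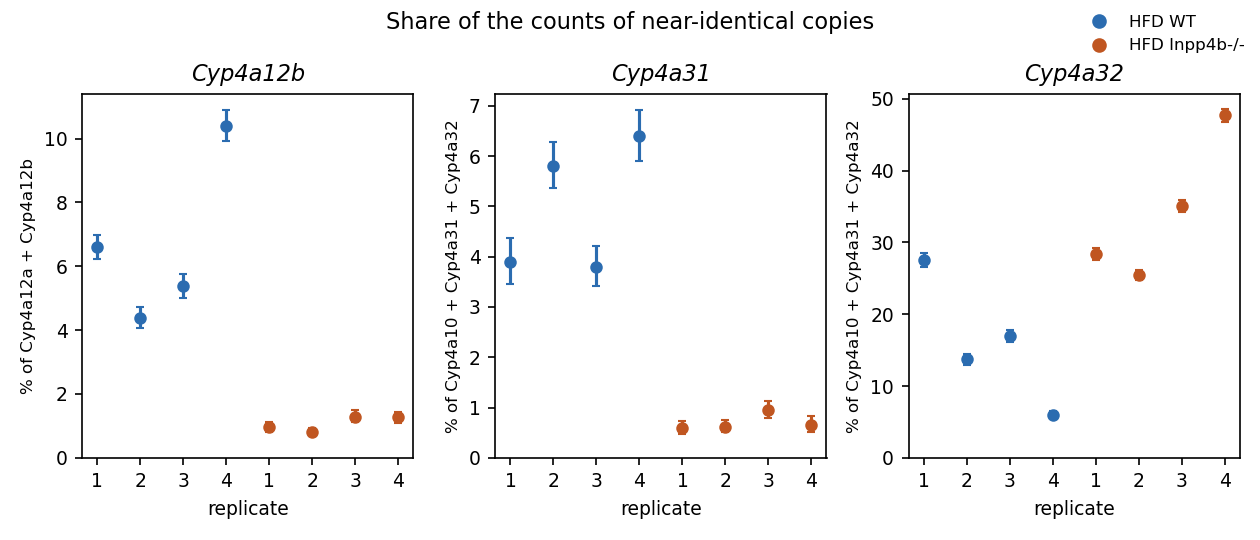
Share of the summed raw counts of near-identical copies (y axis, percent) in each library (x axis, replicate number), with exact binomial 95% intervals as bars and HFD WT in blue, libraries labelled Inpp4b-/- in orange. Cyp4a12b is shown as a share of the pair, and Cyp4a31 and Cyp4a32 as shares of the trio; the first and second panels show no overlap between groups, and in the third WT replicate 1 at 27.6% lies above Inpp4b-/- replicate 2 at 25.5%.

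*Cyp4a14*, which shares no 150-base window with another Cyp4a transcript and encodes a PPARA-inducible lauric acid hydroxylase, was 2-fold lower in mean with wide spread. HFD WT libraries held 329.5, 422.3, 507.6 and 678 CPM, and the libraries labelled *Inpp4b*-/- held 349.6, 340.7, 166.3 and 112.6 CPM. The groups met at their edges, HFD WT replicate 1 lying below the highest library of the other group. The means were 484.3 ± 148 and 242.3 ± 121 CPM (log2 fold change -0.999, SE 0.359), and leaving out 1 library at a time moved the log2 fold change between -1.23 and -0.76.

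**Figure D3:**
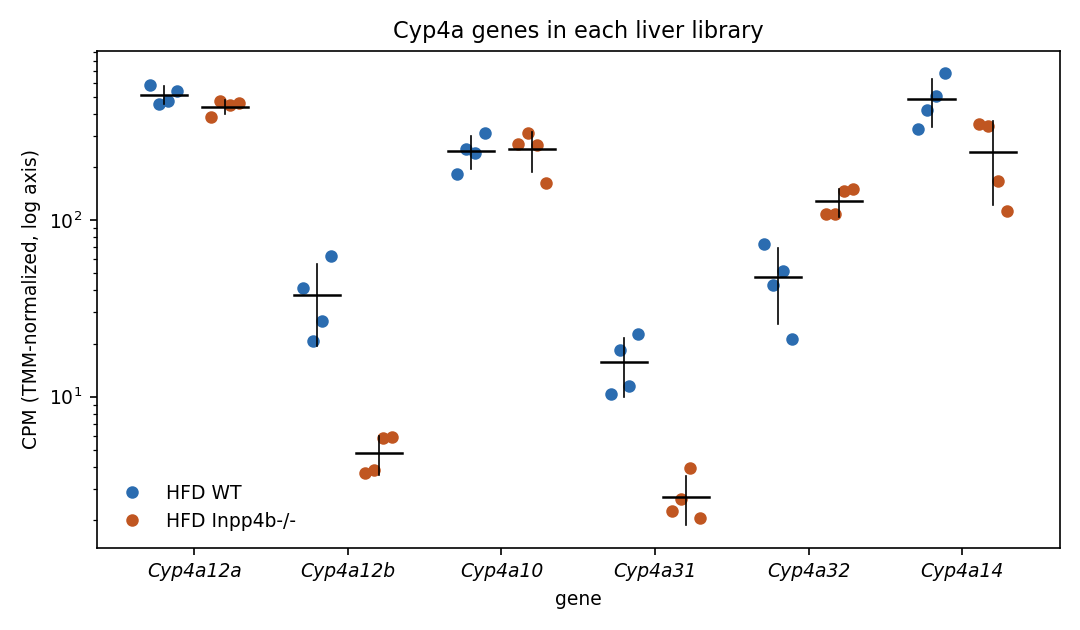
Level of the 6 Cyp4a genes in each library in TMM-normalized CPM on a log axis (y axis), by gene (x axis), with HFD WT in blue and libraries labelled Inpp4b-/- in orange. Horizontal lines are group means and vertical lines ± 1 SD of 4 libraries; Cyp4a12b and Cyp4a31 lie lower and Cyp4a32 higher in every library labelled Inpp4b-/- than in any WT library, and the other 3 genes overlap.

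The comparison across all genes used edgeR's quasi-likelihood test. The call rule asked for an adjusted p (Benjamini-Hochberg, over all tested genes) below 0.10 together with more than 1.3-fold difference in mean. It was met by 174 of 14866 tested genes (1.17%), 82 higher (0.552%) and 92 lower (0.619%) in the libraries labelled *Inpp4b*-/-. All 6 Cyp4a genes were tested and 3 met that rule, *Cyp4a32* in the higher direction and *Cyp4a12b* and *Cyp4a31* in the lower. The same 3 had no overlap between groups, as had 1296 tested genes in all (8.72%). DESeq2, the tool of the study, called 688 of its 17016 tested genes (4.04%) and 4 of the 6, adding *Cyp4a14*. The 6 were selected on this contrast, so nothing is read from these counts against the background. Without HFD WT replicate 2, edgeR called 345 genes, and 2 of the 6, *Cyp4a12b* and *Cyp4a31*. The p-values measure the spread between these mice and take each mouse as independent. Among libraries labelled *Inpp4b*-/-, replicates 1 and 2 lay apart from replicates 3 and 4 in *Cyp4a12b*, *Cyp4a14* and *Cyp4a32*. In *Cyp4a10* replicates 1 and 2 also lay above replicates 3 and 4. The gap there was narrow, with replicate 1 at 269.4 CPM and replicate 3 at 266 CPM. In *Cyp4a12a* and *Cyp4a31* the replicates did not divide this way. The mouse numbers of the genotypes do not interleave in the labels. Litter or date was not analysed, and such an effect cannot be told apart from genotype here.

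Per kilobase of exon the order of the genes differed between genotypes in its middle ranks. In HFD WT the order of CPM per kilobase of exon (RPKM) was *Cyp4a12a* (211 ± 24.7), *Cyp4a14* (186 ± 57), *Cyp4a10* (117 ± 24.8), *Cyp4a32* (30.9 ± 14.1), *Cyp4a12b* (15.8 ± 7.72) and *Cyp4a31* (6.27 ± 2.31). Of the neighbours in that order, only *Cyp4a10* and *Cyp4a32* had ranges that did not overlap, 86.6 to 147 and 13.8 to 47.9 RPKM. Among libraries labelled *Inpp4b*-/- the order was *Cyp4a12a* (182 ± 16.6), *Cyp4a10* (120 ± 30.4), *Cyp4a14* (93.2 ± 46.5), *Cyp4a32* (83.2 ± 15), *Cyp4a12b* (2.01 ± 0.506) and *Cyp4a31* (1.08 ± 0.336). There *Cyp4a10*, *Cyp4a14* and *Cyp4a32* ran into one another: *Cyp4a10* exceeded *Cyp4a14* in 3 of 4 libraries and *Cyp4a14* exceeded *Cyp4a32* in 2 of 4. *Cyp4a12b* and *Cyp4a31* overlapped too, although *Cyp4a12b* was higher in 4 of 4. The merged exon length of *Cyp4a32*, 1536 bases, is close to its 1530 coding bases, so its RPKM is not on quite the same footing as the others.

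Summed over all 6 genes, the level was 1344 ± 198 CPM in HFD WT and 1070 ± 146 CPM in the libraries labelled *Inpp4b*-/-, a log2 ratio of -0.33 with overlap. *Cyp4a10* and *Cyp4a14*, the PPARA-inducible members, summed to 731.2 ± 198 and 494.9 ± 176 CPM (log2 ratio -0.56), again overlapping. The spread within a genotype was uneven: *Cyp4a12a* varied least, with a coefficient of variation of 11.7% in WT and 9.12% in the other group, and *Cyp4a14* reached 49.9% in the libraries labelled *Inpp4b*-/-.

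Within genotypes, single mice showed different mixtures of the genes. HFD WT replicate 4 was the highest WT library for *Cyp4a10*, *Cyp4a14*, *Cyp4a31* and *Cyp4a12b* and the lowest for *Cyp4a32*, which was 1 log2 unit below its genotype mean there. HFD WT replicate 1 was the lowest for *Cyp4a10*, *Cyp4a14* and *Cyp4a31* and the highest for *Cyp4a32*. *Inpp4b*-/- replicate 4 lay 0.60 below its genotype mean for *Cyp4a10* and 0.95 below for *Cyp4a14* on the log2 scale, and 0.24 above for *Cyp4a32*. The likeness of other genes to these within-genotype patterns was measured as the root mean square difference of log2 deviations over 8 libraries, among 12532 genes. Among so many genes and so few libraries, close matches can arise without a link, and shared control was not tested. Nearest to *Cyp4a10*, whose own deviations had a root mean square of 0.32, were *Ankrd26* (0.10), *Gm28719* (0.12) and *Klb* (0.13), the last encoding the co-receptor beta-klotho. For *Cyp4a14* (0.56) they were *Map3k14* (0.16), *Hsd17b6* (0.18) and *Bbs7* (0.19). *Cyp4a12a* varied little (0.13), and its nearest genes were *Taf5* (0.031), *Ppfia1* (0.037) and *Eif3d* (0.038).

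Around the cluster no call was made. Of the 5 nearest tested genes on either side, 10 in all, 0 were called by edgeR, 0 by DESeq2 and 0 had an unadjusted p under 0.05, and their log2 fold changes ran from -0.41 in *Trabd2b* to 0.16 in *Pdzk1ip1*. *Cyp4b1*, a related P450 gene on the opposite strand whose 3′ end faces that of *Cyp4a32*, had a log2 fold change of -0.16 (SE 0.31, edgeR adjusted p = 0.862) and *Cmpk1* one of 0.08 (SE 0.08, adjusted p = 0.676). The pseudogene *Cyp4a30-ps*, which lies between *Cyp4a12a* and *Cyp4a12b*, stood at 0.94 with an SE of 1.09 and was not called.

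**Figure D4:**
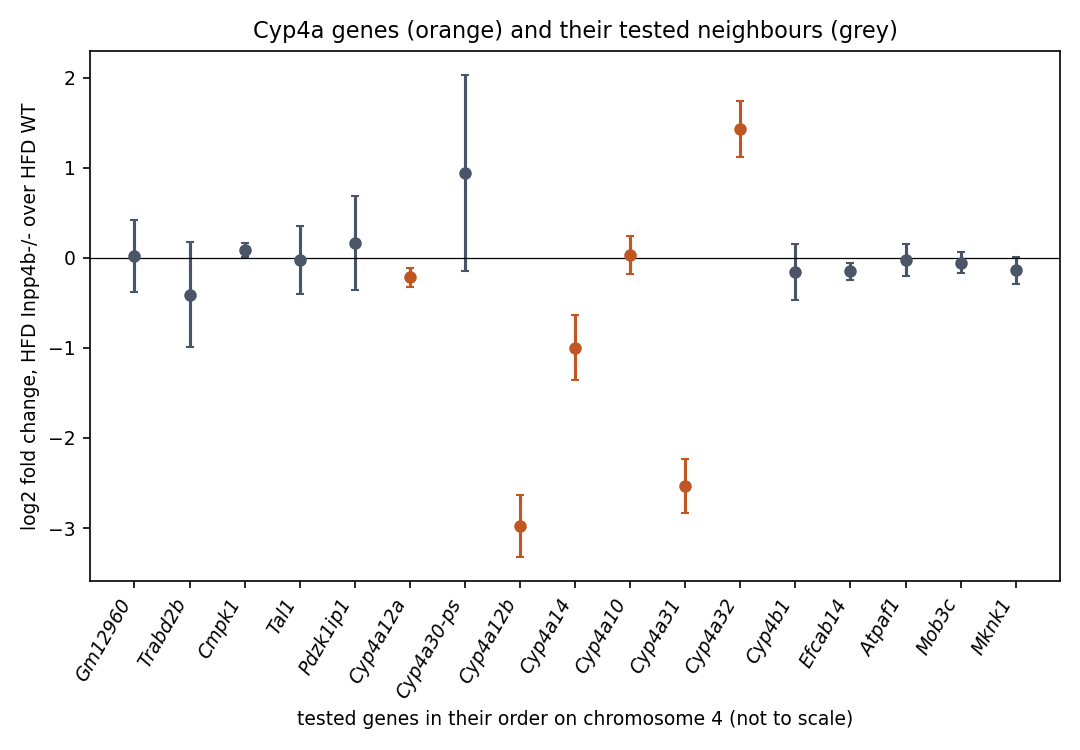
Log2 fold change between libraries labelled Inpp4b-/- and HFD WT (y axis, bars ± 1 SE derived from the edgeR F statistic) for the Cyp4a genes in orange and the tested genes between and around them in grey, in chromosome order and not to scale (x axis). The 5 genes on each side lie between -0.41 and 0.16, while Cyp4a12b and Cyp4a31 lie below -2 and Cyp4a32 above 1.

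The genes that work with Cyp4a enzymes were compared next, as lists described by their counts beside the whole table, in which 50.4% of tested genes had a positive log2 fold change and the median was 0.00275. Of the 7 tested Cyp4 genes outside Cyp4a, edgeR and DESeq2 called none, 0 had an unadjusted p under 0.05, and the median was 0.018. The most abundant were *Cyp4f14* (-0.15, SE 0.13), which hydroxylates leukotriene B4, *Cyp4v3* (-0.16, SE 0.15) and *Cyp4f15* (0.16, SE 0.15). Of 5 genes listed as electron donors of microsomal P450 enzymes, likewise, neither tool called any and 0 had an unadjusted p under 0.05. The list includes *Hmox1*, a heme oxygenase gene and not itself an electron donor, which had the largest difference of the 5 (log2 fold change -0.84, SE 0.44). *Por*, the reductase that feeds electrons to all of these P450s, was at 501 ± 231 CPM in the libraries labelled *Inpp4b*-/- and 634.1 ± 193 CPM in WT (log2 fold change -0.34, SE 0.33, edgeR adjusted p = 0.694). *Inpp4b*-/- replicates 1 and 2 stood at 313.6 and 290.2 CPM, below every WT library (404.9 to 804.9 CPM). Replicates 3 and 4, at 675 and 725.4 CPM, lay within the WT range.

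Enzymes that take omega-hydroxylated acids further, through alcohol and aldehyde dehydrogenation, activation and peroxisomal beta-oxidation, were mostly higher without a call by edgeR, which gave 10 of 28 an unadjusted p under 0.05. The share of all tested genes at that level is not given here, so nothing is read from this count. DESeq2 called 3, and edgeR called 2 with upper quartile scaling and 2 without HFD WT replicate 2. Of 28 tested, 26 had a positive and 2 a negative log2 fold change, with a median of 0.18, and the median stayed between 0.19 and 0.27 when 1 library at a time was left out. Their summed level was 21100 to 21800 CPM in the libraries labelled *Inpp4b*-/- and 17500 to 20100 CPM in WT. *Ehhadh*, the bifunctional enzyme of peroxisomal beta-oxidation, was at 624.7 ± 108 and 486.9 ± 97.4 CPM (0.36, SE 0.17, edgeR adjusted p = 0.371). *Acsl1*, which activates long-chain fatty acids to acyl-CoA, had a log2 fold change of 0.11 (SE 0.14) and *Scp2* of 0.02 (SE 0.13).

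PPARA target genes were described because *Cyp4a10* and *Cyp4a14* belong to the same programme. Of 45 tested, 36 had a positive log2 fold change, the median was 0.25 and edgeR called 1 gene, and 0 or 1 in the fits without 1 library. An unadjusted p under 0.05 by edgeR was found in 15, a count again given without the share of all tested genes and not read against it. DESeq2 called 7, and edgeR with upper quartile scaling 4. *Fabp1*, the liver fatty acid binding protein, was at 6112 ± 336 against 4307 ± 890 CPM (log2 fold change 0.50, SE 0.15, edgeR adjusted p = 0.201), *Pdk4* at 0.41 (SE 0.30) and *Cpt1a*, the carnitine transferase of mitochondria, at -0.02 (SE 0.10). Both *Cyp4a14*, at -0.999, and *Cyp4a10*, at 0.03, lay below the median of this list. Leaving out 1 library at a time moved the list's median between 0.20 and 0.27.

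Among 19 nuclear receptors and cofactors of PPAR signalling edgeR called none (3 at an unadjusted p under 0.05) and DESeq2 1, 7 had a positive and 12 a negative log2 fold change, and the median was -0.058. *Ppara* itself was at 92 ± 17.3 CPM in the libraries labelled *Inpp4b*-/- and 95.8 ± 25.2 CPM in WT (log2 fold change -0.06, SE 0.20, edgeR adjusted p = 0.926). Its partner *Rxra* had a log2 fold change of -0.12 (SE 0.09), *Hnf4a* of -0.19 (SE 0.18) and *Lpin1* of -0.48 (SE 0.50).

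Because *Cyp4a12a* depends on androgen and growth hormone, genes of growth hormone signalling were described, *Stat5b* and *Bcl6* among them. Of 18 growth hormone signalling genes edgeR called none (4 at an unadjusted p under 0.05) and DESeq2 1, and the median was 0.23. *Stat5b* was at 58.5 ± 13.7 against 48.9 ± 4.32 CPM (log2 fold change 0.26, SE 0.15, edgeR adjusted p = 0.49). The receptor gene *Ghr* stood at 0.13 (SE 0.11), *Igf1* at 0.01 (SE 0.17) and *Igfals* at 0.24 (SE 0.18). *Bcl6*, a male-biased repressor, had a mean of 33.5 ± 22.6 against 72.7 ± 37.7 CPM, with overlap (-1.12, SE 0.53, adjusted p = 0.386).

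Of 30 tested male-biased liver genes outside Cyp4a, edgeR called 6 lower and 1 higher, 25 had a negative log2 fold change and the median was -0.57. An unadjusted p under 0.05 by edgeR was found in 16, which is likewise not read against the share of all tested genes. The 7 calls became 15 with DESeq2, 12 without HFD WT replicate 2, 2 without *Inpp4b*-/- replicate 2 and also without *Inpp4b*-/- replicate 3, and 1 with the replicate number as a block. Their summed level was 23300 to 34800 CPM in the libraries labelled *Inpp4b*-/- and 40700 to 60000 CPM in WT. *Moxd1* fell from 17.9 ± 14.3 to 0.0815 ± 0.0701 CPM (edgeR adjusted p = 0.0116), and its fitted log2 fold change of -7.77 depends on the prior count. *Serpina1e*, an alpha-1-antitrypsin gene, fell by 3.38 on the log2 scale (SE 0.57, adjusted p = 0.0375), and the urinary protein gene *Mup20* by 2.61 (SE 0.42, adjusted p = 0.0327), while *Fitm1* rose by 1.37 (SE 0.26, adjusted p = 0.0667). *Gstp1*, a glutathione transferase gene, fell from 810.2 ± 392 to 287 ± 31.3 CPM (adjusted p = 0.0804). *Serpina1e* and *Mup20* belong to families of near-identical copies, like the Cyp4a genes. Of 20 tested female-biased genes edgeR called 1, the P450 gene *Cyp2b9*, higher by 4.93 (SE 0.85, adjusted p = 0.0433), and the median of that list was 0.25. An unadjusted p under 0.05 by edgeR was found in 4 of the 20. Without HFD WT replicate 2 edgeR called 8 of 22 and the median was 1.0, while DESeq2 on all libraries called 6 of 29. In the other direction, edgeR called 0 without HFD WT replicate 1, without *Inpp4b*-/- replicate 2 and without *Inpp4b*-/- replicate 3. The lowest median was 0.16, without *Inpp4b*-/- replicate 2. In fits without 1 library *Moxd1* and *Serpina1e* were called in 8 of 8, *Mup20* in 6, *Cyp2b9* in 5, *Fitm1* in 4 and *Gstp1* in 1, the one without HFD WT replicate 2. Whether these differences bear on *Cyp4a12b* was not tested.

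**Figure D5:**
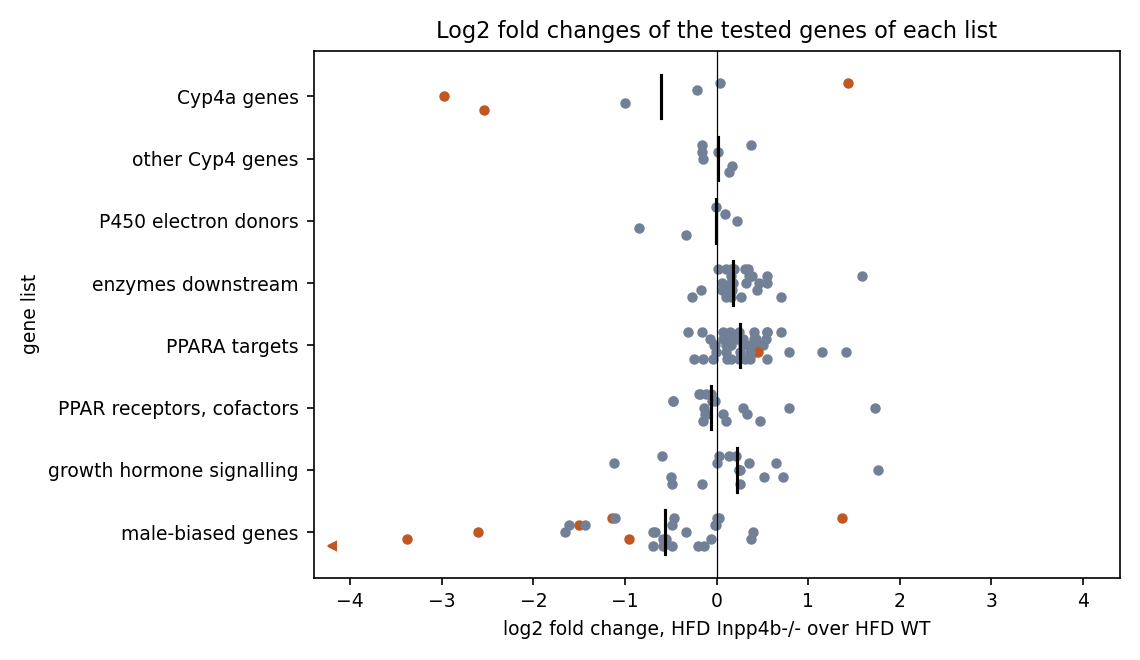
Log2 fold change between libraries labelled Inpp4b-/- and HFD WT (x axis) of each tested gene in 8 lists (y axis), with called genes in orange, others in grey and the median of each list as a black bar; vertical scatter within a list has no meaning. The arrow at the left edge is Moxd1, at -7.77, and the medians run from -0.61 for the 6 Cyp4a genes and -0.57 for male-biased genes to 0.25 for PPARA targets.

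Of genes that handle arachidonic acid by other routes edgeR called none (6 at an unadjusted p under 0.05), DESeq2 called 1, and edgeR called 1 without HFD WT replicate 2 and 1 without HFD WT replicate 3. Of 22 tested, 16 had a positive log2 fold change and the median was 0.24. *Ephx2*, the soluble epoxide hydrolase, was at 1168 ± 53.8 against 984.1 ± 110 CPM without overlap (0.25, SE 0.10, edgeR adjusted p = 0.325), and the epoxygenases *Cyp2j5* and *Cyp2c29* stood at 0.23 (SE 0.11) and -0.81 (SE 0.46), the latter at -0.02 without HFD WT replicate 2. Of 16 pericentral hepatocyte genes 12 had a negative log2 fold change, the median was -0.24 and their sum was 10400 to 11900 against 8760 to 16800 CPM. Leaving out 1 library moved that median between -0.37 (without HFD WT replicate 4) and -0.074 (without HFD WT replicate 2). The 18 periportal genes had a median of 0.092, which ran from -0.067 without *Inpp4b*-/- replicate 4 to 0.27 without *Inpp4b*-/- replicate 2. With all 8 libraries neither tool called a gene of these 2 lists, edgeR called 1 periportal gene without HFD WT replicate 2, and 2 pericentral and 3 periportal genes had an unadjusted p under 0.05.

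A promoter window from RefSeq (GRCm38.p6) was at hand for 1 of the 6 genes, *Cyp4a32* (chr4:115600688-115600987, + strand, 300 bases around the start). It held no match on either strand to 2 copies of AGGTCA separated by 1 base with up to 2 mismatches, the type of element bound by PPARA with RXR, a motif present in 3.86% of 32851 such windows. It also held no TTCNNNGAA, the STAT5 type of element, present in 8.3% of windows.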

How the data were processed

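Liver RNA from 4 HFD WT and 4 HFD *Inpp4b*-/- males was sequenced as 150-base read pairs. The authors aligned reads to GRCm38 with HISAT2 and deposited HTSeq gene counts, beside a second table of signal that the authors normalised in DESeq2; versions, annotation release, strand setting and treatment of reads that fit several copies are not given in the sources used here. The labels name a Ribo-Zero step that the study's methods do not. Identifiers were matched to GENCODE GRCm38 names (18095 of 18095). Counts were tested with edgeR 4.0.16 in R 4.3.3 (TMM, filterByExpr, quasi-likelihood, 14866 genes) and with DESeq2 1.42.0. CPM used TMM library sizes, and RPKM the merged exon length. The biological coefficient of variation was 0.251. The SE given with a log2 fold change is its absolute value divided by the square root of the edgeR F statistic. The script was tested on simulated data. Coding-sequence identity replaced protein identity. Lists and genes were named by rule (called genes first, up to 5 a list, then the most abundant up to 3, plus fixed regulators), and some of them are not reported here. The members and lists were chosen with earlier results of these data known. Counts do not show which bases the reads carried, so differences between the mice's own Cyp4a sequences and the reference were not analysed here. Replicate numbers did not pair libraries: same-number correlations of deviations were -0.16 to 4.6e-05.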

Additional observations from a re-analysis of the deposited data

Results flagged for a closer look

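In groups of 4 libraries a value was listed when its gap to the nearest other library exceeded 0.829 of the group's range (Dixon's 95% value). This was examined in 94 groups, where about 1 in 20 is reached by chance. No Cyp4a gene was among them. The values were 4: *Serpina1e* at 11590 CPM in HFD WT replicate 3, *Mup20* at 806.7 CPM in *Inpp4b*-/- replicate 4, and *Cyp2b9* at 10.3 CPM and *Cyp2c29* at 1968 CPM in HFD WT replicate 2. The nearest libraries of the same groups were at 6408, 299.7, 1.66 and 552.8 CPM.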

How the results depend on the processing

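The number of genes called moved from 174 to 71 at an adjusted p under 0.05, 83 at a fold change over 2, 688 with DESeq2 and 26 with the replicate number as a block. It ran from 53 without *Inpp4b*-/- replicate 2 to 345 without HFD WT replicate 2. Other scalings and filters gave 140 to 170 and summing the copies 167. The count of Cyp4a genes called moved from 3 to 1, *Cyp4a12b*, with the replicate block, and was 2 or 3 without 1 library. It could not be given with copies summed. Numbers did not pair the libraries. In 16 alternative settings *Cyp4a12b* was called in 16, *Cyp4a31* in 15, *Cyp4a32* in 8, *Cyp4a14* in 1 (DESeq2), *Cyp4a10* and *Cyp4a12a* in 0. Log2 ratios of the summed Cyp4a levels kept their sign under every setting run.

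Signs that turned were of values no further from 0 than that of *Pdzk1ip1* (0.16) with all 8 libraries. The medians of the periportal genes, the other Cyp4 genes and the electron donors were among them. Without 1 library they could be larger, up to 0.27 for the periportal median and 0.48 for *Pdzk1ip1*. *Igf1* gave -0.0024 with DESeq2, -0.0029 with DESeq2 size factors in edgeR and -0.015 with the replicate block, and *Cpt1a* 0.0038 with upper quartile scaling. Without 1 library the log2 fold change ran from -0.086 to 0.20 for *Cyp4a10*, -0.11 to 0.13 for *Igf1*, -0.092 to 0.058 for *Cpt1a*, -0.22 to 0.077 for *Ppara*, -0.079 to 0.093 for *Scp2*, -0.35 to 0.068 for *Cyp4b1* and -0.21 to 0.48 for *Pdzk1ip1*. The cause was not tested. The lowest count of a Cyp4a gene in a library was 73 (*Cyp4a31*), and how reads that fit several copies were counted was not tested.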
